A study of Mus musculus with 6 samples.

Results

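Keratins were examined in NIH3T3 cells, an immortalised mouse fibroblast line, as all probe sets whose platform gene symbol, standing alone, was Krt followed by a number and at most 1 letter. The rule took 61 of the 45101 probe sets of the array and 48 of the 18193 genes that had a symbol of their own, with no filter on signal. Krt8 and Krt18, the pair of simple epithelia, accounted for 4 of these probe sets and the other 46 genes for 57. The cells came from clone M, a single clone with lac operator (lacO) insertions at several genomic sites, cultured in DMEM with 10% FCS. Arrays of 3 tethered samples, with lacO sequence at the nuclear periphery, were set against arrays of 3 untethered samples, with lacO sequence lying centrally. Both groups were of the same clone and medium. The study asked what tethering of a genomic region to the inner nuclear membrane does to transcription. No source used here gives the sites of the insertions, so no keratin gene can be placed near to or far from an insertion.

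Keratins are the intermediate filament proteins of epithelia. A type I (acidic) keratin pairs with a type II (basic) keratin, and the pairs assemble into filaments that anchor at desmosomes and carry mechanical load. Krt8 (type II) and Krt18 (type I) pair in simple epithelia such as liver and gut, Krt5 and Krt14 in the basal layer of stratified epithelia, and Krt1 and Krt10 in the layers above it, while hair and its inner root sheath have sets of their own. Fibroblasts build their filaments from vimentin instead. Most mouse keratin genes lie in 2 clusters, and in the RefSeq gene table (GRCm38.p6) 24 of the measured genes lay on chromosome 11, which holds the type I genes, and 24 on chromosome 15, which holds the type II genes. Krt18 is the exception among type I genes. It followed Krt8 as the last of the 24 keratin genes on chromosome 15.

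The values are intensities on a linear scale, as deposited. The median intensity was between 482.5 and 490.8 on the 6 arrays. Vim, which encodes vimentin, had intensities of 21020.5, 25217.9 and 25503.7 on tethered arrays and 23331.4, 23939.8 and 25387.2 on untethered arrays, and the groups overlapped. Col1a2, a collagen chain of fibroblasts, was bright as well, between 17192.8 and 20304.3 on tethered arrays and between 18306.2 and 20054.6 on untethered arrays. Cdh1, the epithelial cadherin, had 1 probe set, at 222.3, 62.4 and 76.0 on tethered arrays and 138.9, 105.3 and 69.8 on untethered arrays. Signals of probe sets with little target were gauged from 43 probe sets of olfactory receptor genes, a family of sensory neurons, whose 95th percentile was between 928.5 and 1081.7 on the 6 arrays. Intensities of different probe sets depend on their probes as well as on the RNA, so this mark describes signal and calls no gene present or absent.

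Krt8 and Krt18 stayed under the olfactory receptor mark on all 6 arrays, on each of their 4 probe sets. On its brightest probe set (1423691_x_at) Krt8 had intensities of 455.7, 477.0 and 490.8 on tethered arrays and 444.0, 462.3 and 473.1 on untethered arrays. On the second (1420647_a_at) it had 419.3, 447.8 and 499.2 on tethered arrays and 425.0, 424.0 and 477.7 on untethered arrays. The dimmest (1435989_x_at) gave 415.2, 436.1 and 484.0 on tethered arrays and 427.9, 399.7 and 413.9 on untethered arrays. The groups overlapped on all 3, and tethered replicate 3 was the highest of the 6 arrays on each.

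Krt18, measured by 1 probe set (1448169_at), had intensities of 123.7, 138.3 and 129.1 on tethered arrays and 132.9, 106.5 and 116.6 on untethered arrays. The highest untethered array stood above both of the lower tethered arrays, so these groups overlapped too. In limma's fit over 45037 probe sets (all but 64 array controls), the log2 difference of tethered minus untethered was 0.14 for Krt18 (SE 0.099, adjusted p = 0.989). Its 95% interval ran from -0.10 to 0.38, or from 0.93-fold to 1.30-fold. For Krt8 the differences were 0.05, 0.04 and 0.10, from the brightest probe set to the dimmest, with intervals that together ran from -0.18 to 0.29. All 4 values were above 0 and none of the 4 intervals left out 0. Without untethered replicate 1, the highest untethered array for Krt18, its difference was 0.23 (limma, adjusted p = 0.816), and without untethered replicate 2, the lowest, it was 0.07. The plot of Krt8 and Krt18 by array shows how close the values of the groups lie.

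**Figure D1:**
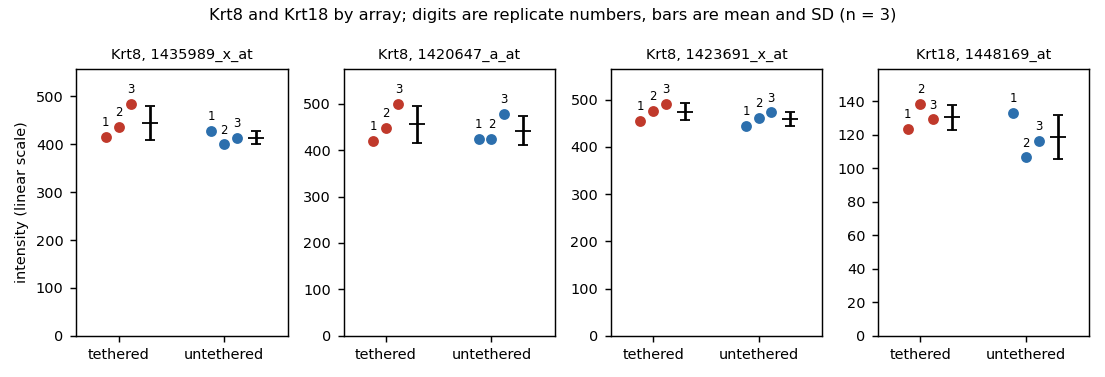
Intensity (linear scale) of the 3 Krt8 probe sets and the Krt18 probe set on 3 tethered and 3 untethered arrays; digits are replicate numbers and bars give the mean and SD of each group. Groups overlap in all 4 panels, with Krt18 between 106.5 and 138.3 on the 6 arrays.

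The other members of the simple class were no brighter than the mark on any array. Krt19, a type I keratin of ducts, averaged 403.5 ± 10.7 on tethered and 394.4 ± 14.6 on untethered arrays (SD, n = 3 each). Krt7, a type II keratin of glands and ducts, averaged 157.6 ± 25.1 on tethered and 164.4 ± 7.91 on untethered arrays (SD, n = 3 each). Krt20, of intestinal epithelium, and Krt23 averaged 353.0 and 698.6 over all 6 arrays. Of the 4 probe sets of these genes, 1 had a difference above 0 and 3 below, from -0.10 to 0.03 on the log2 scale, against 4 above 0 for the pair Krt8 and Krt18. The 6 simple keratins did not share a direction.

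Across all keratins, 50 of 61 probe sets were under the mark on every array, 1 (Krt6a, 1422783_a_at) was above it on 5 arrays and 10 (16.4%) were above it on all 6, where 23.6% of all probe sets were. The 10 belonged to 9 genes. They were Krt42, Krt14 and Krt80 of the basal and epidermal class, Krt78 and Krt4 (2 probe sets) of the suprabasal class, Krt83, Krt81 and Krt32 of the hair class, and Krt88. Krt42, a type I keratin, had the highest mean intensity at 3082.5 (1439765_x_at), and Krt78, a type II keratin, followed at 2566.7. The plot of all 61 probe sets shows this order, with the inner root sheath and simple classes entirely to the left of the mark. The brightest inner root sheath members were Krt28, Krt71 and Krt72, with mean intensities of 643.3, 601.5 and 529.3.

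**Figure D2:**
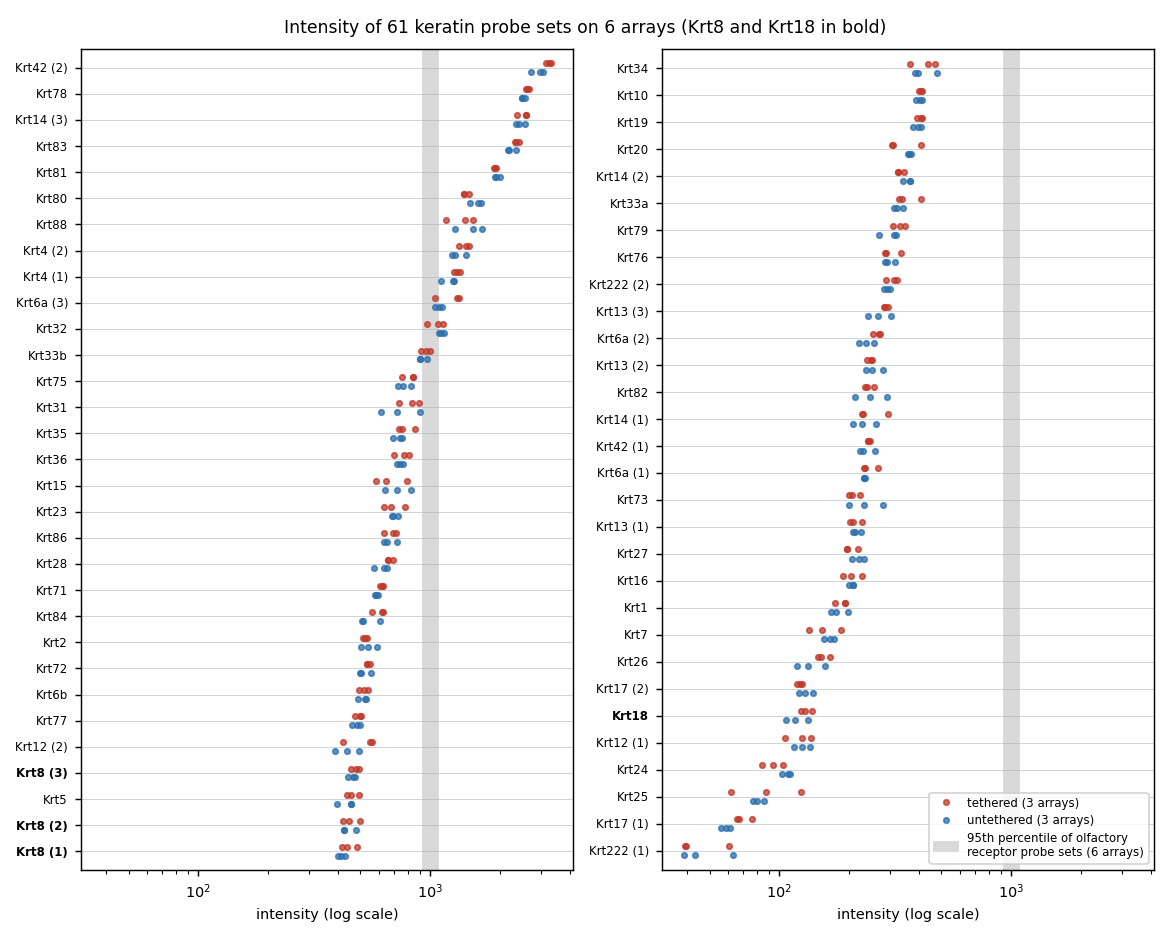
Intensity (log axis) of each keratin probe set on 3 tethered and 3 untethered arrays, brightest at the top left; probe sets of 1 gene are numbered from the dimmest, and the grey band spans the 95th percentile of olfactory receptor probe sets over the arrays (928.5 to 1081.7). Of the 61 probe sets, 10 lie above the mark on all 6 arrays, and those of Krt8 and Krt18 lie below it.

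Probe sets of the same gene often gave very different signals. Of 9 keratin genes with more than 1 probe set, Krt42 spread most, with mean intensities of 3082.5 and 240.2. Krt14, the basal keratin that pairs with Krt5, had 2479.2 on 1423935_x_at but 344.8 and 241.8 on its other probe sets. Krt6a, a type II keratin induced in wounded epidermis, had 1156.5 on 1422783_a_at and 251.7 and 238.8 on the others. The suffixes _x and _s mark probe sets with probes that can match other sequences, and _a those that match several transcripts of a gene. Of the 61 probe sets, 16 carried such a suffix, among them the brightest of Krt42, Krt14 and Krt6a. Above the mark on all 6 arrays were 3 of these 16 and 7 of the 45 without such a suffix, Krt78 among the latter. Krt5, on its only probe set, had a mean intensity of 449.6.

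Probe sets of epithelial markers could differ as widely. Epcam, an adhesion molecule of epithelia, had mean intensities of 2713.8 on 1447899_x_at and 234.4 on 1416579_a_at. For Grhl2, a transcription factor of epithelial identity, 4 probe sets had means from 138.4 to 2510.8, and 2 of them were under the mark on all arrays. All 4 probe sets of Trp63, which encodes the basal-cell factor p63, and all 3 of Dsp, the desmosomal linker of keratin filaments, were under it on all arrays.

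Between tethered and untethered arrays limma called 0 of 61 keratin probe sets at an adjusted p under 0.05, where it called 0.0% of all probe sets, and the smallest adjusted p of a keratin was 0.989. At an unadjusted p under 0.05 there was 1 (1.64%), against 3.96% of all probe sets. Without moderation of the spread there were 4, with 0 called. The share of all probe sets was not taken for that fit, so the 4 cannot be judged against it. All 61 intervals of the difference lay within 2-fold in either direction and 59 lay within 1.5-fold, the exceptions being Krt25 and 1 probe set of Krt222 (1457354_at). Nothing in the labels tells replicate cultures from repeat arrays, so p-values measure only the spread between these samples, some of it possibly technical.

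The keratin with the smallest p was Krt17, a type I keratin induced in injured epidermis. Its dim probe set 1420193_at had intensities of 67.3, 76.6 and 65.7 on tethered arrays and 61.3, 58.8 and 56.1 on untethered arrays, and the groups did not overlap. The log2 difference was 0.25 (SE 0.082; limma, adjusted p = 0.989). The other Krt17 probe set, 1423227_at, gave -0.08 (SE 0.071), with overlapping groups.

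Krt42 had intensities of 3152.0, 3319.7 and 3251.6 on tethered arrays and 2726.4, 2974.2 and 3070.9 on untethered arrays on its bright probe set, again without overlap. This was a log2 difference of 0.15 (SE 0.069). Krt6a (1427700_x_at) stood at 0.16, Krt84, a type II hair keratin, at 0.15 and Krt28, an inner root sheath keratin, at 0.12. Among values below 0, Krt80, a type II keratin, had the smallest p. Its intensities were 1470.1, 1402.7 and 1396.9 on tethered arrays and 1608.4, 1648.9 and 1487.0 on untethered arrays, with no overlap and a log2 difference of -0.15 (SE 0.067). Krt24 (-0.20), Krt14 on 1455573_at (-0.11), and Krt27 (-0.10) and Krt73 (-0.17) of the inner root sheath followed. None of these passed the adjusted threshold.

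Groups did not overlap for 7 of 61 keratin probe sets (11.5%), against 9.68% of all probe sets. Tethered arrays were higher for 6 of them (Krt17, Krt42, Krt28, Krt71, Krt4 and Krt78), as for 5.36% of all probe sets, and lower for 1 (Krt80), as for 4.32% of all. Krt78, which lies next before Krt8 among the keratins of chromosome 15, had 2586.5, 2602.1 and 2658.0 on tethered arrays and 2496.9, 2488.4 and 2568.3 on untethered arrays, a log2 difference of 0.05 (SE 0.055). This difference was about equal to its standard error.

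**Figure D3:**
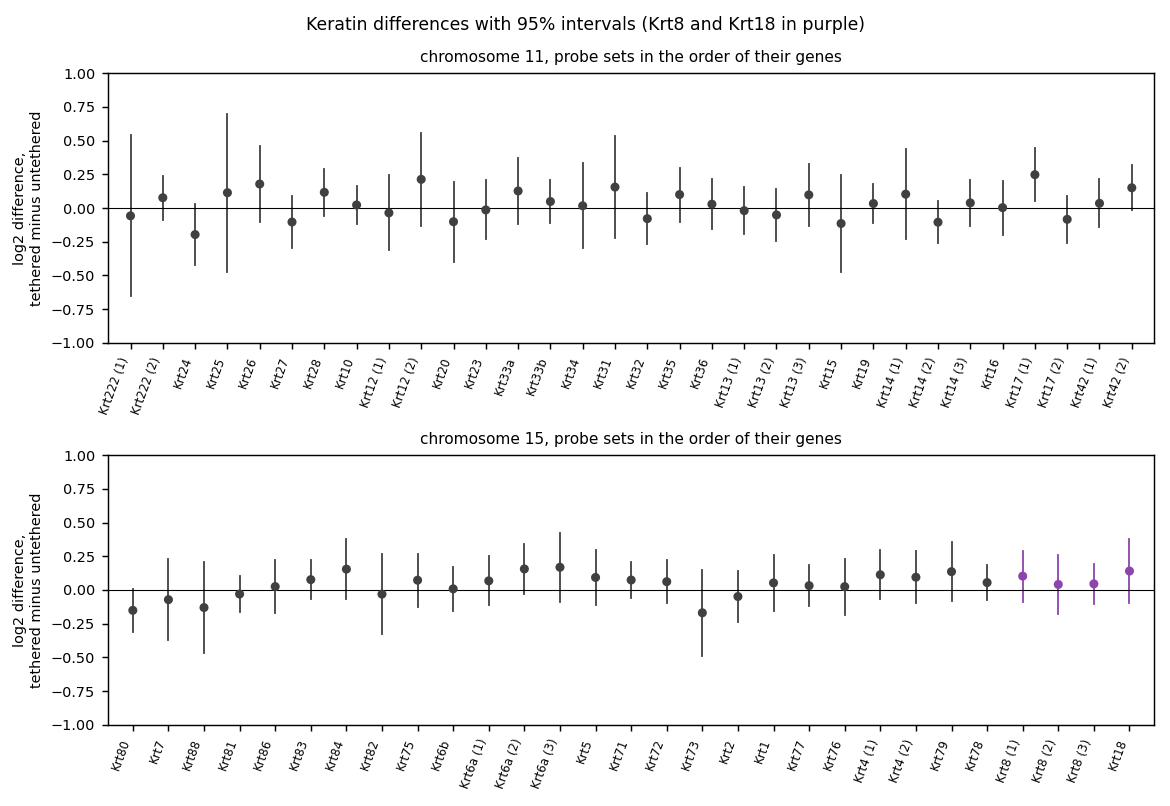
Log2 difference (tethered minus untethered) with its 95% interval from limma for each keratin probe set, in the order of the genes along chromosomes 11 and 15; probe sets of 1 gene are numbered from the dimmest. All 61 intervals lie between -1 and 1, as do 96.6% over all probe sets, and Krt8 and Krt18 close the row of chromosome 15.

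Small values above 0 were the more frequent. Of the 61 keratin probe sets, 42 (68.9%) had a difference above 0, where 49.0% of all probe sets did, and the median was 0.04, against -0.003 over all probe sets. The olfactory receptor probe sets gave 26 of 43 (60.5%) above 0 and a median of 0.04. On chromosome 15 there were 22 of 29 above 0 and on chromosome 11 there were 20 of 32, with medians of 0.05 and 0.03. By class the count was 13 of 17 for basal and epidermal, 9 of 14 for suprabasal, 9 of 12 for hair, 5 of 7 for inner root sheath and 5 of 8 for simple keratins, with 1 of 3 for Krt88 and Krt222.

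Taken per array, the mean deviation of the 61 probe sets from their 6-array means was 0.027, 0.019 and 0.005 in tethered and -0.032, -0.031 and 0.011 in untethered arrays (log2). Untethered replicate 3 stood above tethered replicate 3, so these means overlapped. The array's 18S rRNA control, read near its 5' end as a sign of RNA quality, was between 10.48 and 10.94 in tethered and between 11.15 and 12.16 in untethered arrays (log2). For transferrin receptor, the 5' minus the 3' signal was -2.81 and -3.07 on untethered replicates 1 and 2. It was between -2.09 and -1.52 on the other arrays. For Gapdh it was 0.04 and -0.06 on those 2 arrays and between 0.08 and 0.10 on the others. The part of RNA quality in the keratin values was not tested. In 5 of the 9 genes with several probe sets (Krt12, Krt13, Krt14, Krt17 and Krt222) the probe sets differed in sign. The largest such gap was that of Krt17 (-0.08 and 0.25), next to Krt12, a cornea keratin (-0.04 and 0.21).

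Keratin signals also varied little from array to array. The SD of log2 intensity over the 6 arrays had a median of 0.098 among keratins (0.100 for Krt8 and Krt18, 0.097 for olfactory receptors) and 0.121 over all probe sets, and 40 of 61 keratins were under the value for all probe sets. A brightest array at least 1.5-fold over the dimmest was found for 2 keratin probe sets (3.28%), against 18.1% of all probe sets. They were dim ones. Krt25, of the inner root sheath, had intensities of 124.2, 88.0 and 62.0 on tethered arrays and 86.3, 77.3 and 80.3 on untethered arrays, with the highest and the lowest of the 6 both among the tethered. Krt222, a keratin-like gene, had 39.3, 39.6 and 60.8 on tethered arrays and 38.8, 43.5 and 63.2 on untethered arrays (1457354_at), with both arrays numbered 3 above the other 4. The most even were Krt81, of hair, and Krt10, which pairs with Krt1, with SDs of 0.031 and 0.032.

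Both groups share the replicate numbers 1 to 3, and the labels do not say what a number marks. With the group in the fit, limma's moderated F test over the 3 numbers called 0 of 61 keratin probe sets, where it called 1.43% of all probe sets. At an unadjusted p under 0.05 there were 5 keratins (8.20%), against 16.4% of all probe sets. Krt222 (1457354_at) had the smallest p (adjusted p = 0.057), and its other probe set, between 289.0 and 322.2 on tethered and between 282.6 and 299.0 on untethered arrays, had an adjusted p of 0.704 in limma's test. With each array centred on its median, 1457354_at, a dim probe set (mean intensity 47.5), passed at an adjusted p of 0.0465 in that test. In that setting 2.07% of all probe sets were called.

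Krt15, a type I keratin of basal cells and of the hair follicle bulge, had intensities of 586.0, 641.9 and 795.6 on tethered replicates 1, 2 and 3 and 637.6, 718.3 and 829.7 on the untethered ones. Krt88 had 1168.9, 1407.2 and 1522.2 on tethered and 1283.4, 1536.0 and 1666.5 on untethered arrays, in the same order. For Krt15 and Krt88 the tethered array was the lower at each number, and their adjusted p for number was 0.144 and 0.149 (limma). Krt34, a type I hair keratin, and Krt12 (1419231_s_at) completed the 5, with adjusted p of 0.264 and 0.281 in the same test. For Krt8 the smallest adjusted p for number was 0.387 and for Krt18 it was 0.928 (limma).

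**Figure D4:**
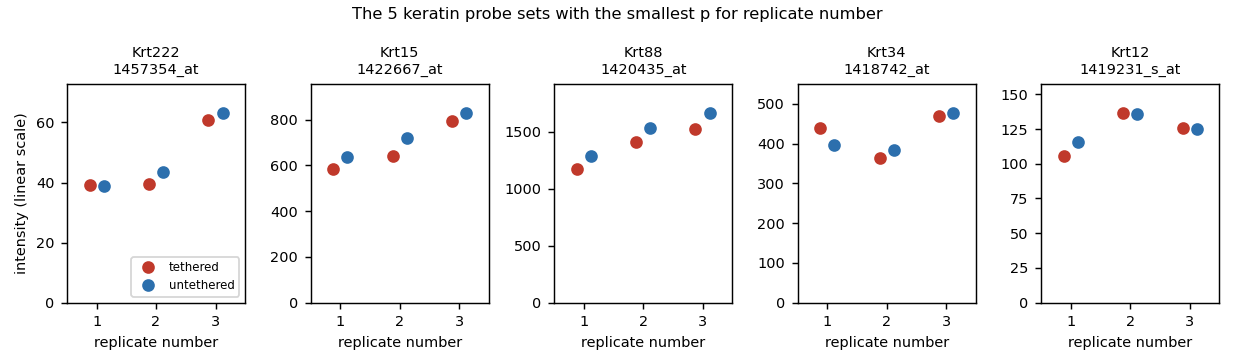
Intensity (linear scale) of the 5 keratin probe sets with the smallest p for replicate number, by replicate number, with the tethered array at the left of each number and the untethered one at the right. For Krt222 both arrays numbered 3 (60.8 and 63.2) lie above the other 4.

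Genes that work with keratins, or mark the cells that make them, were taken from 7 lists with 122 genes, of which 114 were measured, each by its brightest probe set. Limma called 0 of the 114 between tethered and untethered arrays, where it called 0.0% of all probe sets. An unadjusted p under 0.05 was found for 4 of the 114, against 3.96% of all probe sets. Of 19 epithelial junction and surface genes, 12 had differences above 0 with a median of 0.02, and their summed intensity was between 14464.3 and 14876.7 on tethered and between 14210.9 and 14501.5 on untethered arrays. In that list 14 genes, Cdh1 among them, were under the olfactory receptor mark on all arrays. The other 5 were above it on all 6, where 23.6% of all probe sets were. That share counts every probe set of a gene, while each listed gene enters by its brightest only, so the measures are unlike. Cldn7 (0.13) and Cldn3 (0.10), tight junction claudins, had its smallest p-values.

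Of 18 genes for desmosomes and keratin anchoring, 7 were above 0 and the median was -0.04. Dsc2, a desmosomal cadherin, had intensities of 387.9, 363.0 and 386.2 on tethered arrays and 340.0, 339.9 and 311.3 on untethered arrays. The groups did not overlap (log2 difference 0.20, SE 0.067; limma, adjusted p = 0.989). Dsp stood at 0.43 on its brightest probe set, with a standard error of 0.33 and overlapping groups, and at 0.09 and -0.06 on its others. The difference of the brightest was 0.10 without untethered replicate 1, 0.25 without tethered replicate 3 and 0.69 without untethered replicate 2. Plec, which encodes plectin, a linker that also binds vimentin, had a difference of -0.32 (SE 0.25) that shrank to -0.04 once tethered replicate 1 was left out. The cornified envelope list had 12 of 18 above 0 and a median of 0.02. Sprr1a, a precursor of the envelope, stood at 0.20 (SE 0.081) and Ivl, involucrin, at -0.22 (SE 0.11). With the probe sets of Ivl averaged its difference was -0.09 (SE 0.065).

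The non-keratin intermediate filament genes had 9 of 16 above 0 and a median of 0.03. Vim stood at -0.02 (SE 0.094), with a 95% interval from -0.25 to 0.21, and Des, the muscle filament protein desmin, at 0.18 (SE 0.097). Of 20 epithelial transcription factors, 11 were above 0 with a median of 0.04. Foxa1, a factor of endodermal and glandular epithelia, had intensities of 428.5, 457.8 and 403.0 on tethered arrays and 491.0, 515.3 and 494.0 on untethered arrays. Its log2 difference was -0.22 (SE 0.070; limma, adjusted p = 0.989), and all 6 values were under the mark. Ovol2, a repressor of mesenchymal genes, stood at 0.16 (SE 0.067) and Grhl2 at 0.13 (SE 0.086).

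Factors that repress epithelial genes were bright on some of their probe sets. The brightest probe set of Zeb1 had intensities of 2389.4, 2471.1 and 2594.5 on tethered arrays and 2076.6, 2876.1 and 2354.0 on untethered arrays, a log2 difference of 0.04 (SE 0.13), and its other 3 probe sets stood between -0.26 and -0.03. Zeb2 was below 0 on all 5 of its probe sets, from -0.83 (SE 0.36, overlapping groups) on 1454200_at to -0.02 (SE 0.067) on the brightest. Its second brightest stood at -0.03. Under the olfactory receptor mark on all arrays were 3 of the 5 probe sets, 1454200_at among them. One of them, 1434298_at, had intensities of 752.6, 543.9 and 665.7 on tethered arrays and 957.7, 859.0 and 847.0 on untethered arrays. These groups did not overlap, and the log2 difference of -0.45 (SE 0.13) did not pass the test (limma, adjusted p = 0.989). Snai2, a repressor of Cdh1, had the smallest p of this list at a difference of 0.11 (SE 0.13), which was -0.01 without tethered replicate 1. The list had 4 of 10 above 0 and a median of -0.03, against 9 of 10 and 0.06 without tethered replicate 1. Without both arrays numbered 1, an alternative chosen after seeing the data, 6 of 10 were above 0 and the median was 0.04. Twist2 of this list, a mesenchymal transcription factor, was the 1 gene of all 7 lists called for replicate number (limma, adjusted p = 0.0273). Of all probe sets, 1.43% were called for number. Twist2 had 1334.4, 3369.4 and 4265.1 on tethered and 1588.6, 3259.3 and 4030.1 on untethered arrays numbered 1, 2 and 3. The Twist2 call was lost with floors of 32 and 64 (adjusted p = 0.0675 and 0.138) and without moderation (0.402), and held in the other 4 alternatives.

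The fibroblast markers had 2 of 13 values above 0 and a median of -0.15. The count moved most with tethered replicate 1, without which 9 of 13 were above 0 and the median was 0.08. With any other single array left out, from 0 to 5 were above 0, the 5 without untethered replicate 2. Without both arrays numbered 1, an alternative chosen after seeing the data, 6 of 13 were above 0 and the median was -0.03. Col3a1, a fibrillar collagen, had intensities of 2323.0, 7065.5 and 6727.4 on tethered arrays and 4211.2, 6887.2 and 7793.6 on untethered arrays. Dcn, the matrix proteoglycan decorin, had 2401.6, 5376.3 and 5681.9 on tethered arrays and 5247.0, 5203.8 and 5723.6 on untethered arrays. Tethered replicate 1 was the lowest of the 6 for both genes, which were named after their values were seen. Col1a1, a fixed marker, had 3908.2, 8988.1 and 7719.9 on tethered arrays and 5715.3, 7834.1 and 7113.1 on untethered arrays on its brightest probe set. Its log2 difference was -0.08 (SE 0.32), and 0.29 without tethered replicate 1. Pdgfrb, a receptor of platelet-derived growth factor, had intensities of 2176.9, 1183.9 and 1252.2 on tethered arrays and 2288.6, 2713.3 and 2365.6 on untethered arrays, with no overlap. The difference was -0.73 (SE 0.24; limma, adjusted p = 0.989), and -1.01 without tethered replicate 1. With the probe sets of Pdgfrb averaged it was -0.48 (SE 0.17). The matrix genes Postn and Lum stood at -0.25 and -0.24. Without tethered replicate 1 they were also further below 0, at -0.34 and -0.33. The summed intensity of the 13 markers was between 65374.1 and 92465.8 on tethered and between 82166.2 and 90974.7 on untethered arrays, so it overlapped.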

How the data were processed

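The authors deposited linear intensities, with 1 value for each probe set on each array. How the probes were summarised and the arrays scaled is not given in the sources used. Labels name biotin-labelled total RNA and Affymetrix protocols. Gene symbols are those of the platform annotation, and 100.0% of the keratin identifiers were found in the RefSeq gene table. Intensities under 16 were set to 16 (0 values of keratins) and log2 was taken. The median intensities differed by at most 1.72%.

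All 45037 probe sets other than 64 controls were fitted with limma 3.58.1 in R 4.3.3 (linear model, empirical Bayes, Benjamini-Hochberg adjustment over all, called under 0.05, two-sided, no covariate), with no filter on signal. The moderated F test for replicate number had the group as a covariate. The number of arrays limits the precision. The procedure was run on simulated data whose added differences were larger than any keratin difference here, so that run does not bear on small differences. The text names the keratins of smallest p (5 per direction and 5 for number), the brightest of a class, those above the olfactory receptor mark, genes whose probe sets differ in sign, and from each list the fixed markers and genes among the 4 of smallest p. Col3a1 and Dcn were named outside this rule. Members, lists and tests were chosen with earlier results of these data known. Alternatives covered the floor, scaling, filter, moderation, probe set averaging, a replicate block and leaving out arrays.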

Additional observations from a re-analysis of the deposited data

How the results depend on the processing

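Between tethered and untethered arrays, the count of called keratins was 0 in the main fit and in all 15 alternatives, and so was that of the 114 genes of the lists. With 1 array left out it ran from 0 to 0. Krt8 (brightest probe set) stayed above 0 in all 14 alternatives that tested it, from 0.02 to 0.07, and Krt18 from 0.07 to 0.26, the last when the 2 arrays numbered 1 were left out (an alternative chosen after seeing the data; limma, adjusted p = 0.713). Restricting the fit to probe sets above the median signal left 25 keratin probe sets and neither Krt8 nor Krt18. Of the 10 keratin probe sets named for their p, 1 turned direction: Krt14 (1455573_at) was 0.012 when the probe sets of the gene were averaged. The number of keratins at an unadjusted p under 0.05 was 1 in the main fit and from 0 to 4 in the alternatives. It was 4 without tethered replicate 1, without both arrays numbered 1 and without moderation. Shares of all probe sets at this p were not taken for the alternatives, so these counts have no background beside them. For replicate number, 1 keratin (Krt222) was called with arrays centred on their medians and 0 in the other 6 alternatives. With centred arrays 2.07% of all probe sets were called. In the whole table the main fit called 645 probe sets for number. Both floors of 32 and 64 left 0, as did the fit without moderation.

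With the replicate block the keratin count was also 0, Krt8 stood at 0.05 (SE 0.059), Krt18 at 0.14 (SE 0.11) and the smallest adjusted p of a keratin was 0.722 (limma). Deviations from the group means correlated between same-numbered arrays at 0.62, 0.07 and 0.60 for numbers 1, 2 and 3 over all probe sets, and tethered replicate 2 correlated best with untethered replicate 3 (0.23). Over the keratin probe sets alone the values were 0.31, 0.23 and 0.53, and each array correlated best with its own number. The arrays were treated as sharing a number only, and the main fit had no block. Deviations sum to 0 within each group, so the value of 0.07 does not show that the arrays numbered 2 were unrelated. For Twist2, which varied with number, the SE of the group difference was 0.53 in the main fit and 0.09 with the block. For Dsc2 it was 0.067 and 0.072. The median difference of all probe sets was -0.003 as deposited, 0.010 after quantile normalization and 0.005 with centred arrays. No detection calls were used here, so signal over background is not known for the dim keratins.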
